A study of Mus musculus with 2 samples.

Results

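The Hedgehog pathway was followed through 9 genes of the 31053 in the count tables: the ligand Shh, the receptor Ptch1 with the co-receptors Boc and Gas1, the signal transducer Smo, the transcription factors Gli1, Gli2 and Gli3, and the antagonist Hhip. They were chosen by name, as core genes of the pathway, and all 9 were found in the tables. The tissue was the aorta-gonads-mesonephros (AGM) region, the part of the mid-gestation mouse embryo around the dorsal aorta, taken at E11 and read cell by cell with the 10x Chromium 3′ chemistry. There was 1 library of PDGFRB +/+ (WT) and 1 of PDGFRB -/- (KO) embryos, the latter from mice that carry a germline mutation of the PDGF receptor β. The line was kept as heterozygotes on the C57BL/6J background, and how many embryos entered each library is not given in the sources used here. With 1 library per genotype no test was possible, and no value has a replicate check. Each level is the number of UMIs (counted transcript molecules) of a gene summed over a cell class and divided by the UMIs of all genes there, on the CPM scale. Ranges in parentheses are exact 95% intervals that cover counting error only. They do not cover the variation between embryos or, for levels and their ratios, between cells.

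In this pathway, a Hedgehog ligand binds Ptch1 on the receiving cell, which releases Smo from inhibition at the primary cilium. Boc, Gas1 and Cdon help the ligand to bind, while Hhip captures it without passing on a signal. Active Smo changes the balance of the Gli factors, with Gli2 known as the main activator and Gli3 as the main repressor, and Gli1, Ptch1 and Hhip are themselves induced, so their transcripts are widely read as the response. In the trunk, Shh from the notochord and floor plate is known to induce the sclerotome, the ventral part of the somite that forms the vertebrae, and Shh from the gut epithelium signals to the mesenchyme around it.

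The libraries held 179743201 (WT) and 174597654 (KO) UMIs, and 8253 and 8165 cells had at least 2000 UMIs and under 10% mitochondrial UMIs, with medians of 13321 and 12391 UMIs. Pdgfrb, the mutated gene, stood at 43.1 CPM (42.1 to 44.2) in WT cells, against 7.09 CPM (6.66 to 7.55) in those of KO. Xist was at 793 and 0.415 CPM and 4 Y-linked genes together at 0.0266 and 163 CPM, so the libraries differ in sex as well as in genotype, and the effects of these cannot be told apart. Cells were put into classes by marker genes other than the members, and 20 cell barcodes occurred in both libraries. Mesenchyme held 5452 WT and 5823 KO cells and was divided into sclerotome (637 and 1053 cells), visceral mesenchyme (504 and 242), mural cells (263 and 180), gastro-splenic mesenchyme (225 and 1), cells of several such gates, and the remainder, called other mesenchyme (3596 and 4239). The mix of classes differed between the libraries, so in a level over all mesenchyme fewer cells of a type and fewer transcripts per cell cannot be told apart.

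The 9 genes lie on 7 chromosomes of GRCm38. Gli3 (15463235 to 15730026), Gas1 (60174405 to 60177365) and Ptch1 (63508328 to 63573598) are on chromosome 13, while Shh lies at 28456815 to 28467256 of chromosome 5 and Smo at 29735503 to 29761365 of chromosome 6. Hhip spans 79965851 to 80058006 of chromosome 8, Gli1 127329882 to 127341974 of chromosome 10, Gli2 118834132 to 119053619 of chromosome 1 and Boc 44485049 to 44558897 of chromosome 16. None of them overlaps another annotated gene on its own strand.

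Ptch1 and Hhip are response genes whose levels stood together in several classes, so the bases before their start are shown, as in RefSeq for GRCm38.p6. Both are on the minus strand, at chr13:63565736-63565985 for Ptch1, inside the annotated span of the gene, and at chr8:80058009-80058258 for Hhip. Capitals mark CCACCC, the core of the site bound by Gli factors.
Ptch1: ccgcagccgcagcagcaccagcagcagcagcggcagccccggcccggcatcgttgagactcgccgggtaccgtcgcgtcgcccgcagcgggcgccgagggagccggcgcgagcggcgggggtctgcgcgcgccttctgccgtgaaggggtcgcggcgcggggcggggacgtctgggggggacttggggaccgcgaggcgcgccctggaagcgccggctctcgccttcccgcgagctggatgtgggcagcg
Hhip: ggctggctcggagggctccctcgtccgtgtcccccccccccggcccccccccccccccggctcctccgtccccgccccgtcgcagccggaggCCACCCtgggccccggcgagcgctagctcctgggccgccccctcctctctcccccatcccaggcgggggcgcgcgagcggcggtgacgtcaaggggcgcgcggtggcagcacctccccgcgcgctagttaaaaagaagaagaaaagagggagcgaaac
The Ptch1 stretch is 78.4% G and C and holds 0 copies of the core on either strand, and the Hhip stretch holds 1. RefSeq promoters (250 bases before to 50 after the start) were matched for 6 members, Gli2, Smo, Hhip, Gli3, Gas1 and Ptch1. The Gli site GACCACCCA occurred on either strand in 83 of 32851 promoters (0.253%) and GACCNCCCA in 321 (0.977%), in 0 of the 6. The core alone, which is part of the first site and was added after these values were seen, occurred in 31.5% of all promoters and in 4 of the 6 (Gli2, Gli3, Hhip and Smo). These matches describe letters in this window only.

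Shh, the ligand, was found mostly in a few epithelial cells, more so in WT than in KO. In WT, 129 of the 135 Shh UMIs of classed cells, 95.6% (90.6 to 98.4%), lay in the 47 epithelial cells, at 94.0 CPM (78.5 to 112). The 129 UMIs came from 9 cells, and these ranges, which count UMIs as independent, are too narrow for that. In KO, 12 of the 15 Shh UMIs of classed cells lay in the 60 epithelial cells, at 10.2 CPM (5.30 to 17.9). Of all 20 KO Shh UMIs, 5 lay in unclassed cells, 4 of them in 1 cell. The 5452 WT mesenchymal cells held 5 Shh UMIs and the 5823 KO ones held 2. Sclerotome held 0 UMIs in both libraries, which allows up to 0.289 CPM for WT, and 0.173 CPM for KO. No cells formed a class by the notochord genes T, Noto and Chrd.

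Within the epithelial class, Shh was found beside the transcription factors of endoderm. Of 12 WT epithelial cells with at least 2 UMIs of Foxa1, Foxa2, Foxa3, Cdx2 and Hnf4a, 8 had a Shh UMI, as did 3 of 4 such cells in KO. Of cells with at least 2 UMIs of the nephric duct genes (Pax2, Pax8, Lhx1, Ret and Gata3), 1 of 8 had a Shh UMI in WT and 0 of 14 in KO, and of the remaining epithelial cells 0 of 27 and 1 of 42. The KO epithelial class had a lower Shh level and fewer cells with these endodermal genes, and the part of cell make-up in this was not tested. Of its 12 Shh UMIs, 4 lay in 1 cell with neither set of genes at that level. In WT, 112 of the 138 Shh UMIs lay in 4 cells, with 34, 31, 28 and 19 UMIs each. These cells held 19 to 45 UMIs of Epcam, an epithelial adhesion molecule, and 8 to 24 of Foxa2, and 3 of them had UMIs of Hoxd13, a gene of the posterior end of the embryo. Of the 4, 3 had 86557 to 93689 UMIs in all, and with mitochondrial UMIs limited to under 5% only 4 Shh UMIs were left in 18 WT epithelial cells, beside 6 in 21 KO ones.

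Dhh and Ihh, the other ligands of the family, were read beside Shh. Dhh, known from Schwann cells and the gonads, had 30 UMIs in 23 WT and 34 UMIs in 27 KO cells of the Schwann precursor and neural crest class. Endothelial cells held 25 and 44 Dhh UMIs, in 19 cells of each library. Outside these classes and the cells of several gates, Dhh had 6 UMIs in 6 WT cells and 112 UMIs in 17 KO cells. Of the 17 cells, 9 also had UMIs of Amh and Sox9, which mark supporting cells of the fetal testis, and these held 96 of the 112 UMIs. No WT cell had at least 2 UMIs of Amh together with Sox9 and 13 KO cells did, KO being the library with Y-linked transcripts. These 13 cells held Ptch1 at 112 CPM and Gli1 at 2.54 CPM. Ihh had 9 UMIs in WT and 28 in KO.

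**Figure D1:**
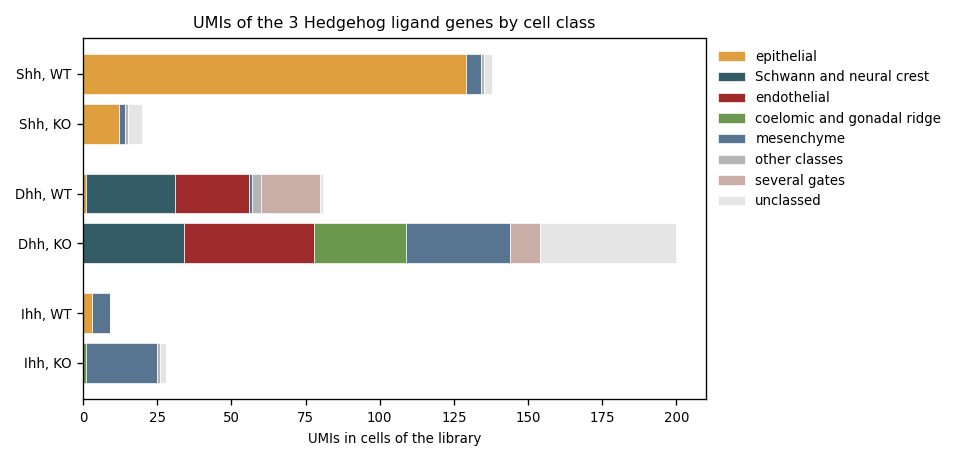
UMIs of the ligand genes Shh, Dhh and Ihh in each library (stacked bars, linear axis), split by cell class. Shh lies mostly in epithelial cells, 129 of 138 UMIs in WT and 12 of 20 in KO, and Dhh in Schwann precursors and endothelium of both libraries and, in KO, also in coelomic, mesenchymal and unclassed cells.

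Ptch1, the receptor and a target, had a UMI in 50.9% (49.5 to 52.2%) of the mesenchymal cells of WT, against 54.5% (53.3 to 55.8%) of those of KO. In erythroid cells, which should lack it, 81 of 737 WT cells and 17 of 215 KO cells had one. When 2000 UMIs were drawn from each cell, Ptch1 was left in 15.0% and 17.2% of mesenchymal cells and in 2.04% and 1.86% of erythroid cells, so mesenchyme stood above the background. In WT the highest class was sclerotome, at 135 CPM (128 to 143), apart from the next class, gastro-splenic mesenchyme at 102 CPM (93.2 to 111). Other mesenchyme, at 100.5 CPM (98.0 to 103), overlapped the latter and lay apart from epithelial cells below it, at 69.2 CPM. From there to macrophages (24.3 CPM) no neighbouring classes lay apart, and erythroid cells were lowest, at 10.9 CPM. The range over the 14 classes was 12.4-fold.

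Gli1, the factor that is itself a target, was highest in the same class. It stood at 18.9 CPM (16.3 to 21.7) in WT sclerotome, apart from 14.0 CPM (13.0 to 14.9) in other mesenchyme, and no neighbours below that lay apart, down to 1.93 CPM in erythroid cells. Hhip, the antagonist, was at 10.3 CPM (7.64 to 13.6) in gastro-splenic mesenchyme, 10.2 CPM (8.35 to 12.3) in sclerotome and 8.53 CPM (7.81 to 9.30) in other mesenchyme, with none of its neighbours apart. With the UMIs of Gli1, Ptch1 and Hhip added up, sclerotome stood above other mesenchyme by 0.42 (0.34 to 0.49) on the log2 scale in WT and by 0.38 (0.32 to 0.44) in KO. The intervals of the 2 libraries overlapped, so a difference in this excess was not detectable at this depth. Sclerotome was gated by Pax1, Pax9, Uncx and Nkx3-2, and all of these but Uncx are also reported targets of the pathway. The excess, and the place of sclerotome for Ptch1 and Gli1, are therefore not independent of the gate.

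**Figure D2:**
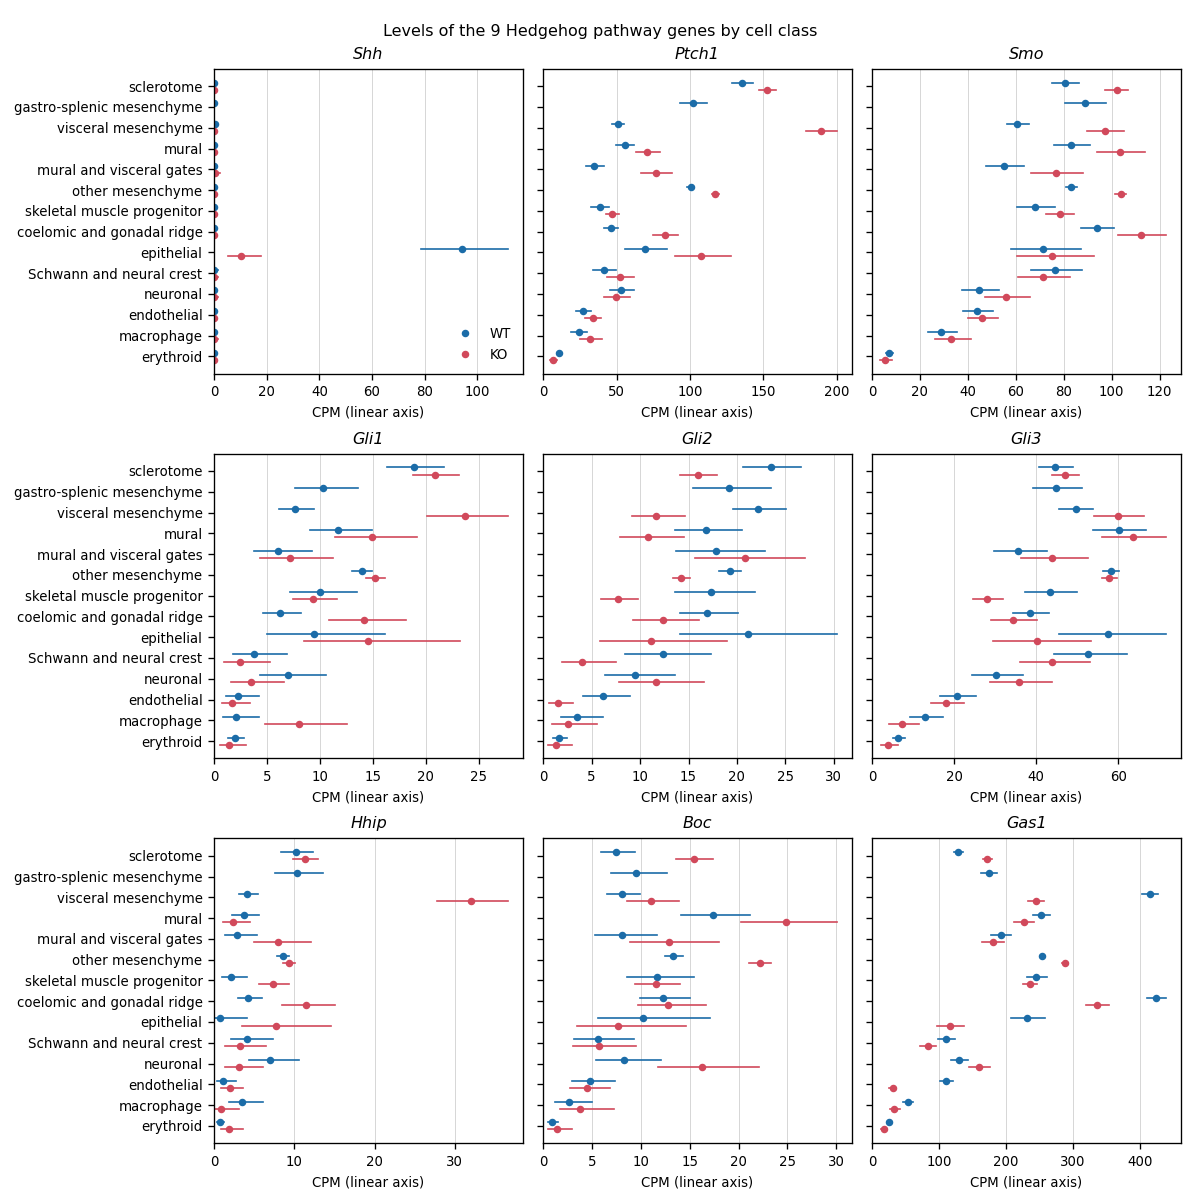
CPM (linear axes, with a scale for each gene) of the 9 genes by cell class, with WT in blue and KO in red. Points are the level of the summed UMIs and lines the exact 95% counting interval, for classes with at least 20 cells. Shh stands out in the epithelial class, and Ptch1 and Gli1 are highest in sclerotome in WT and in visceral mesenchyme in KO, where for Gli1 the latter is lost to sclerotome when 2000 UMIs are drawn from each cell.

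Smo, the transducer, was highest in coelomic epithelium and gonadal ridge in both libraries, with 93.9 CPM (87.2 to 101) for WT cells and 112 CPM (103 to 123) for KO cells, but these overlapped the next class, and with 2000 UMIs drawn from each cell the highest class was gastro-splenic mesenchyme in WT and visceral mesenchyme in KO. In WT its levels passed without a gap between neighbours down to endothelial cells, at 43.8 CPM, with sclerotome at 80.6 CPM and other mesenchyme at 83.0 CPM. The excess of sclerotome seen for Ptch1 and Gli1 was thus not seen for Smo.

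Gli2 was at 23.5 CPM (20.6 to 26.6) in WT sclerotome and 19.3 CPM (18.2 to 20.4) in other mesenchyme, and none of its neighbouring classes lay apart. Gli3 was highest in mural cells, at 60.1 CPM (53.9 to 66.8), and in other mesenchyme, at 58.1 CPM (56.2 to 60.1), while sclerotome held 44.7 CPM (40.7 to 48.9). The WT class with the highest Ptch1 and Gli1 therefore had less of the repressor Gli3 than other mesenchyme. In KO the order of these classes for Gli3 was the same, with 63.6 CPM in mural cells and 47.0 CPM (43.9 to 50.4) in sclerotome. The KO class with the highest Ptch1, visceral mesenchyme, did not have less Gli3, with 59.9 CPM (54.1 to 66.2) beside 57.8 CPM in other mesenchyme. In WT, cells of both the mural and visceral gates were low in both genes, with Gli3 at 35.7 CPM and Ptch1 at 34.8 CPM.

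The co-receptors were lower in sclerotome than in other mesenchyme. Gas1 was highest in coelomic epithelium and gonadal ridge, at 424 CPM (409.9 to 439), and visceral mesenchyme, at 414 CPM (403 to 426), and stood at 129 CPM (122 to 136) in WT sclerotome against 254 CPM in other mesenchyme. Boc was highest in mural cells (in other mesenchyme when 2000 UMIs were drawn from each cell), at 17.3 CPM (14.1 to 21.1), and stood at 7.51 CPM (5.93 to 9.37) in WT sclerotome against 13.3 CPM (12.4 to 14.3) in other mesenchyme. In KO, Gas1 was 172 and 288 CPM and Boc 15.4 and 22.2 CPM in the same 2 classes.

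Single cells with Gli1 also had more of the other response genes. Among WT other mesenchyme, the 620 cells with a Gli1 UMI held Ptch1 at 154 CPM and the 2976 without at 78.5 CPM, a log2 difference of 0.97 (0.90 to 1.05). Hhip differed by 1.23 (0.97 to 1.48). In KO other mesenchyme (773 and 3466 cells) the differences were 0.88 (0.82 to 0.94) for Ptch1 and 1.24 (1.01 to 1.46) for Hhip. In other mesenchyme the co-receptor Gas1 was lower in the cells with Gli1, by -0.39 in WT and -0.38 in KO, and Smo differed by 0.11 and 0.15. Gli3 was higher in them, by 0.29 (0.18 to 0.39) and 0.18 (0.08 to 0.27), and Gli2 in KO, by 0.36 (0.17 to 0.55). Cdon was lower in both libraries (-0.25 and -0.42) and Boc in WT (-0.23). In sclerotome, Ptch1 differed by 0.30 (0.14 to 0.46) in WT and 0.59 (0.48 to 0.71) in KO. The rise was not limited to response genes in sclerotome either, as Smo differed by 0.26 (0.05 to 0.47) and 0.38 (0.24 to 0.52). Boc was lower in the KO sclerotome cells with Gli1, by -0.89 (-1.34 to -0.46). In WT sclerotome Gli3 differed by 0.30 and Cdon by 0.78, but in KO the intervals of both spanned 0. Gas1 differed by -0.06 in WT sclerotome, with an interval that spanned 0, and by -0.13 in KO. The cells with a Gli1 UMI were deeper, with a median of 18950.5 against 11402 UMIs in WT other mesenchyme, and the part of depth in these differences was not tested.

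**Figure D3:**
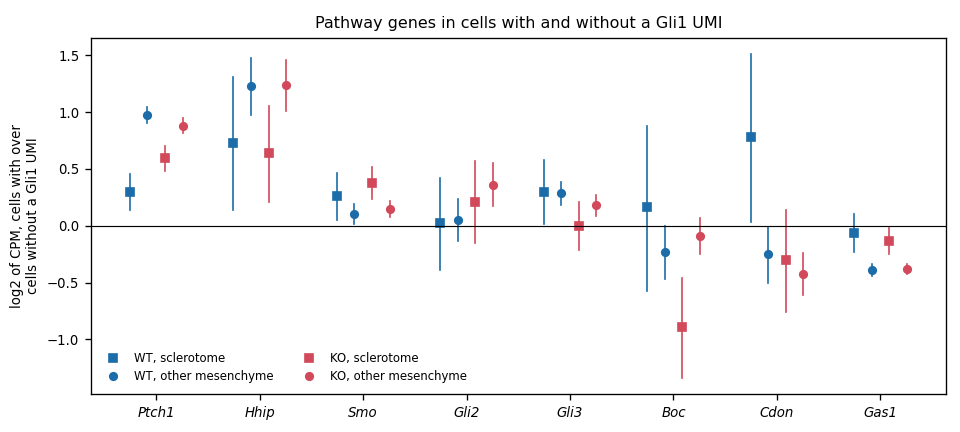
Log2 ratio of CPM in cells with over cells without a Gli1 UMI, for 8 pathway genes in sclerotome and other mesenchyme of WT and KO, with 95% counting intervals. Ptch1 and Hhip lie above 0 and Gas1 below 0 in all 4 groups, and the interval of Gas1 in WT sclerotome spans 0.

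The study sorted stroma by PDGFRβ and NG2 (the product of Cspg4), and gates at 1 UMI of these genes were read in WT mesenchyme. The 236 cells with Cspg4 and no Pdgfrb held Ptch1 at 168 CPM (156 to 181), Gli1 at 18.5 CPM (14.6 to 23.1) and Hhip at 16.5 CPM (12.8 to 21.0). Ptch1 was at 74.6 CPM in the 400 cells with both genes, 89.5 CPM in the 2088 with Pdgfrb only and 96.0 CPM in the 2728 with neither, and Hhip at 5.48, 7.71 and 7.78 CPM. The cells with Cspg4 only were thus highest in Ptch1 and Hhip, beyond the counting intervals. Of these cells 32.6% were sclerotome, against 10.8%, 7.57% and 13.2% of the other gates. Gas1 had its lowest level there, 166 CPM (153 to 179), against 276 CPM with both genes. Median depth was 14065 UMIs with Cspg4 only, 24087.5 with both genes, 16520 with Pdgfrb only and 11031.5 with neither. A gate at 1 UMI depends on depth, and the part of depth in these levels was not tested.

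Likeness to Gli1 was measured as Pearson's r of log2(CPM + 10) over the 13 WT classes with at least 50 cells, among 12701 genes with at least 200 UMIs. The 5 most like genes were Kifc5b (r = 0.967), CT025619.1 (0.961), Duxbl3 (0.954), Dnm3os (0.929) and H2afx (0.927). Over the 12 KO classes these had r of 0.463, 0.856, 0.531, 0.731 and 0.630. Kifc5b and Duxbl3 stood at only 2.47 and 1.58 CPM over all WT cells, below the 10 CPM added, so their r rests on small shifts. Ptch1 was at rank 26, with r of 0.890 in WT and 0.843 in KO, and Gli2 at rank 141 (0.824 and 0.657). Gli3 was at rank 596 (0.735 and 0.614) and Hhip at rank 642 (0.729 and 0.753). Boc was at rank 688 (0.722 and 0.641), Smo at 1165 (0.676 and 0.701) and Gas1 at 3145 (0.550 and 0.726). Hhip (5.99 CPM) and Boc (9.71 CPM) were also below the 10 CPM added, and Gli1 itself stood at 10.0 CPM over all WT cells. The classes of a library share its depth and free RNA, and these values are descriptions.

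Between genotypes, the response genes were higher in KO than in WT mesenchyme. Ptch1 was measured at 93.0 CPM (91.1 to 94.9) in the WT library, against 125 CPM (123 to 127) in the KO library. Gli1 stood at 12.9 CPM (12.2 to 13.6) and 16.5 CPM (15.8 to 17.4), and Hhip at 7.80 CPM (7.26 to 8.37) and 10.8 CPM (10.2 to 11.5). As log2 of KO over WT these were 0.43 (0.39 to 0.47), 0.36 (0.25 to 0.46) and 0.47 (0.34 to 0.61), so none of the intervals reached 0. Smo had 79.5 and 102 CPM, a ratio of 0.36 (0.32 to 0.40). The paper instead lists Smo as significantly lower in the KO Rβ-niche, its cluster that holds the PDGFRβ-positive cells of WT. It used other cell filters, left out KO cells with detected Pdgfrb and compared cells by a rank-sum test. Without KO cells holding a Pdgfrb UMI, the ratio of Smo here was 0.35, and the reason for the opposite directions was not tested. Of the 8 members with at least 100 UMIs, the largest difference was that of Boc, 11.9 CPM (11.3 to 12.6) against 20.1 CPM (19.2 to 21.0), a ratio of 0.75 (0.65 to 0.86). Gas1 (251 and 259.7 CPM) and Gli3 (53.9 and 55.9 CPM) differed by 0.05 each, and for Gli3 the interval spanned 0. Gli2 was the 1 of these 8 that was lower in KO, 19.8 CPM (19.0 to 20.7) against 14.4 CPM (13.7 to 15.2), a ratio of -0.46 (-0.56 to -0.36).

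Of these 8 members, 0 were lower in KO by a fold of 1.5 or more, beside 4.22% of 13715 genes, and 1, Boc, was higher by that fold, beside 4.57%. Without a fold, 7 were higher and 1 was lower, with a median log2 ratio of 0.36 beside 0.02 for all genes, of which 7460 were higher. In sclerotome, 0 were lower by the fold (2.32% of 10355 genes) and 1, Boc, was higher (4.57%). In other mesenchyme, 0 were lower (2.79% of 13067 genes) and 1, again Boc, was higher (4.24%).

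In sclerotome and other mesenchyme, the largest classes, the response genes differed less than over all mesenchyme. In sclerotome, Ptch1 had 135 and 152 CPM in WT and KO (0.17, 0.08 to 0.27), and the intervals of Gli1 (0.15, -0.11 to 0.40) and Hhip (0.15, -0.20 to 0.50) spanned 0. In other mesenchyme, Ptch1 had 100.5 and 117 CPM (0.22, 0.17 to 0.27), and again the intervals of Gli1 (0.13, -0.01 to 0.26) and Hhip (0.12, -0.04 to 0.29) spanned 0. When the shares of the mesenchymal classes were set to a common mix, the ratio was 0.33 for Ptch1, 0.24 for Gli1 and 0.41 for Hhip, the last within its counting interval. Gli2 was lower and Boc higher in KO in both of these classes. Gli2 had 23.5 and 16.0 CPM in sclerotome (-0.56, -0.81 to -0.30) and 19.3 and 14.2 CPM in other mesenchyme (-0.44, -0.56 to -0.31), and Boc 7.51 and 15.4 CPM (1.04, 0.67 to 1.42) and 13.3 and 22.2 CPM (0.73, 0.61 to 0.86). In visceral mesenchyme the interval of Boc (0.45, -0.02 to 0.91) spanned 0, and in cells of both the mural and visceral gates so did that of Gli2 (0.22, -0.33 to 0.77).

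**Figure D4:**
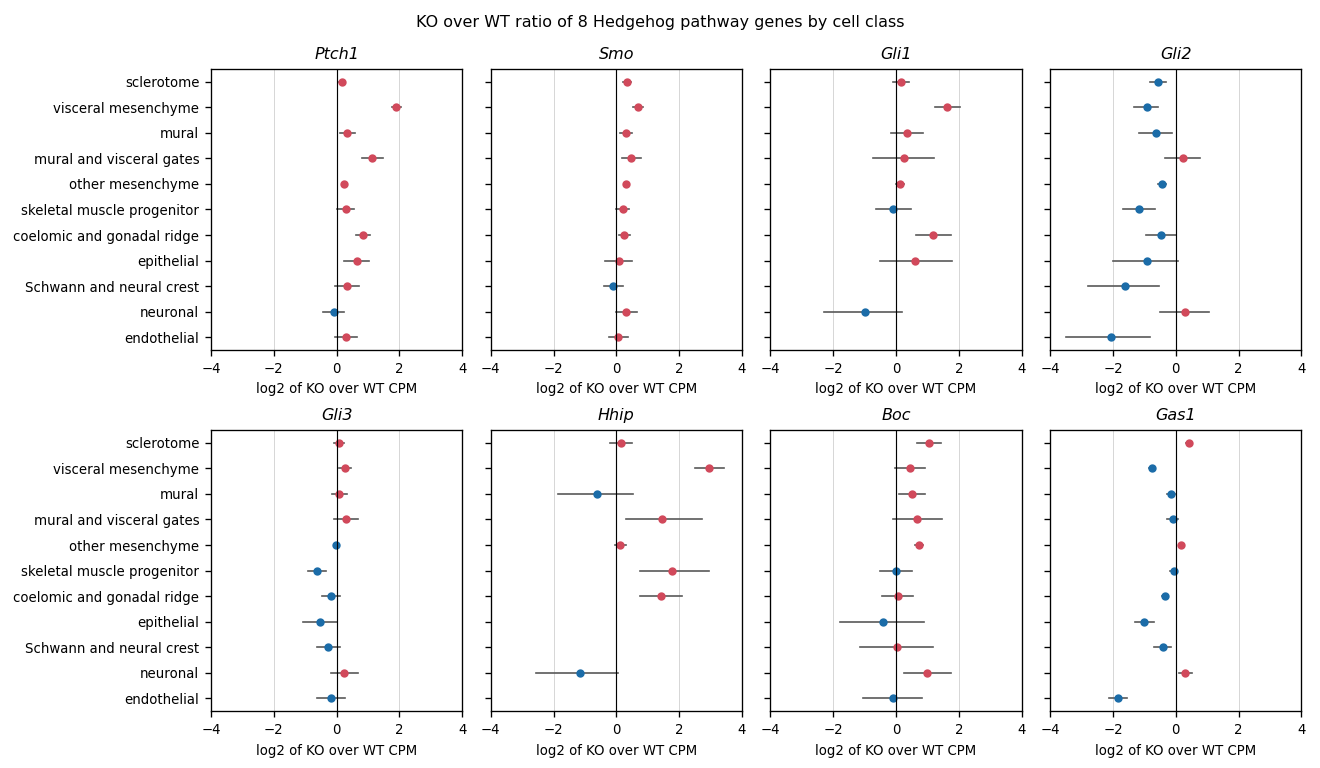
Log2 of KO over WT CPM of 8 genes by cell class, with 95% counting intervals, red where KO is higher and blue where it is lower, for genes with at least 20 UMIs in the class. Erythroid cells and macrophages are not drawn. Of the classes drawn, Ptch1, Gli1 and Hhip stand furthest above 0 in visceral mesenchyme, at 1.90, 1.63 and 2.95, and Gli2 lies below 0 in most classes.

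Among the mesenchymal classes, the response genes differed most in visceral mesenchyme, gated by Wnt2 and Actg2. Ptch1 was 50.8 CPM (46.8 to 55.1) in WT cells, against 189 CPM (179 to 200.3) in KO cells, Gli1 7.65 CPM (6.15 to 9.42) and 23.7 CPM (20.1 to 27.8), and Hhip 4.13 CPM (3.04 to 5.47) and 32.0 CPM (27.8 to 36.7). The log2 ratios were 1.90 (1.75 to 2.04), 1.63 (1.25 to 2.03) and 2.95 (2.49 to 3.44). Ptch1 was detected in 42.7% of the WT cells against 73.1% of the KO cells, Gli1 in 12.9% against 33.9% and Hhip in 5.95% against 28.5%. The 10 cells richest in Ptch1 held 24.9% of its UMIs in WT and 27.9% in KO, and the 10 richest in Hhip 58.3% and 39.3%. Gas1 (414 and 245 CPM) and Gli2 (22.2 and 11.6 CPM) were lower in KO.

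The make-up of visceral mesenchyme differed too, and was read by the matrix genes Postn, Lum and Col1a1. Postn was at 451 CPM in WT cells, against 68.6 CPM in KO cells, Lum at 721 and 54.8 CPM and Col1a1 at 2309 and 630.5 CPM. The 9 mesenchymal markers, which include Lum and Col1a1, summed to 8762 and 2759 CPM. Foxf1, a factor of gut mesenchyme and a reported target, was at 49.5 and 133 CPM. In KO visceral mesenchyme was the class highest in Foxf1, but in WT it was below gastro-splenic mesenchyme (152 CPM) and sclerotome (76.5 CPM). The cells of this class may thus differ in type between the libraries. In WT 290 of 504 cells held at least 3 Postn UMIs, in KO 40 of 242, and the class was split at this level after the values were seen. In the cells under it, Ptch1 was 81.4 and 196 CPM (1.27, 1.09 to 1.46), Gli1 13.0 and 24.6 CPM (0.92, 0.43 to 1.43) and Hhip 8.24 and 33.6 CPM (2.03, 1.47 to 2.62). In the cells at or above it, the ratios were 2.32, 2.17 and 3.85. The response genes were thus higher in KO in both sets, but the split did not even out the matrix genes. At or above that level, WT cells held more Postn (671 against 189 CPM), Lum (1043 against 86.7) and Col1a1 (3136 against 926). Under it, WT cells again held more Postn (33.7 against 15.4 CPM), Lum (108 against 40.7) and Col1a1 (734 against 500). The KO cells at or above it were deeper, with a median of 39955.5 against 19662 UMIs. The part of these and other differences in make-up and depth was not tested.

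The response genes were also higher in KO coelomic epithelium and gonadal ridge (202 and 111 cells). Ptch1 was 46.0 CPM (41.4 to 51.1) in WT cells, against 82.8 CPM (74.5 to 91.8) in KO cells (0.85, 0.63 to 1.06), Gli1 at 6.21 and 14.2 CPM (1.19, 0.62 to 1.77) and Hhip at 4.27 and 11.4 CPM (1.42, 0.76 to 2.10). In KO 3 cells of this class held 31 Dhh UMIs, in WT 0 cells had any, and its mesenchymal markers summed to 3914 CPM in WT cells, against 1914 CPM in KO cells. Most of its cells passed the mesenchyme gate as well, and without those 21 WT and 5 KO cells were left, with 7 and 2 UMIs of Ptch1. In skeletal muscle progenitors (157 and 378 cells) Hhip was 2.14 and 7.28 CPM (1.77, 0.75 to 2.96), Gli2 17.4 and 7.74 CPM (-1.17, -1.67 to -0.67) and Gli3 43.3 and 28.1 CPM (-0.62, -0.91 to -0.34). The 9 mesenchymal markers summed to 1103 CPM in WT muscle progenitors and to 653 CPM in those of KO, and their part in these differences was not tested. Hhip was higher in KO, and the interval of Gli1 (9.99 and 9.36 CPM) spanned 0. In macrophages Gli1 was 2.05 and 8.06 CPM (1.98, 0.66 to 3.47), from 7 and 19 UMIs, and the intervals of Ptch1 and Hhip spanned 0 there.

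Over 9 classes (sclerotome, other, mural and visceral mesenchyme, muscle progenitors, coelomic epithelium, endothelial, Schwann and neuronal cells) Gli2 was lower in KO in 8, the exception being neuronal cells, with 9.53 and 11.6 CPM. Ptch1 and Smo were each higher in 8 and Boc in 7, and Gas1 was lower in 6. Of the 9693 genes with enough UMIs in all 9 classes, 6.94% were lower and 6.36% higher throughout. Of the members, 6 had enough UMIs (Ptch1, Smo, Gli2, Gli3, Boc and Gas1), and 0 of these were.

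Gas1 in endothelial cells was 110.4 and 31.0 CPM in WT and KO (-1.83, -2.11 to -1.56), and Gli2 was 6.19 and 1.49 CPM. The summed level of the 9 mesenchymal markers there was 2301 CPM in WT cells, against 325 CPM in KO cells. Without the cells that also passed the mesenchyme gate, a choice made after seeing the values, 88 of 131 and 86 of 112 cells were left, and Gas1 was 7.24 and 6.13 CPM (-0.24, -1.17 to 0.70). Gli2 then had 2 UMIs in WT and 0 in KO. In epithelial cells the same step left 15 of 47 and 28 of 60 cells and moved Gas1 from 232 and 116 CPM to 85.1 and 121 CPM, while Shh was still higher in WT, at 194 and 23.8 CPM.

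The wider pathway was read in a list of 41 further genes, of which 35 had at least 100 UMIs in mesenchyme. Of these 17 were lower and 18 higher in KO, beside 6255 lower and 7460 higher of all 13715 genes. Their median log2 ratio was 0.06 beside 0.02 for all genes. By a fold of 1.5, 1 was lower, beside 4.22% of all genes, namely the growth regulator Mycn (28.4 and 18.6 CPM, -0.61). Higher by that fold were 2, beside 4.57%, the sclerotome factors Pax1 (45.8 and 78.7 CPM, 0.78) and Pax9 (0.71). Pax1 and Pax9 are also gate genes of the sclerotome, a larger class in KO, and within it they differed by 0.24 and 0.05. In other mesenchyme, outside that gate, they were higher in KO too, by 0.41 (0.30 to 0.51) and 0.81 (0.63 to 0.99).

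By role, 3 of the 5 genes of ligand processing and release were lower and 2 higher, with Scube1 at 30.5 and 26.3 CPM (-0.21, -0.29 to -0.14). Of the reception genes, Cdon, the relative of Boc, was at 12.2 and 16.7 CPM (0.46, 0.35 to 0.57), and Gpc3, which competes for the ligand, was at 776 and 718 CPM (-0.11). Of 12 transduction genes 7 were lower and 5 higher, among them Sufu, the inhibitor that holds Gli factors (13.8 and 12.2 CPM, -0.17), the protein kinase A subunit Prkaca (38.9 and 32.2 CPM, -0.27) and Evc, which acts with Smo at the cilium (9.64 and 11.5 CPM, 0.25). The 3 cilium genes were all higher, by 0.15 (Arl13b), 0.18 (Kif3a) and 0.22 (Ift88), as were 7460 of all 13715 genes. The 12 reported targets were 6 lower and 6 higher, with the cyclin Ccnd1 differing by 0.43 (0.40 to 0.47) and Foxc2 at 46.4 and 40.9 CPM (-0.18).

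**Figure D5:**
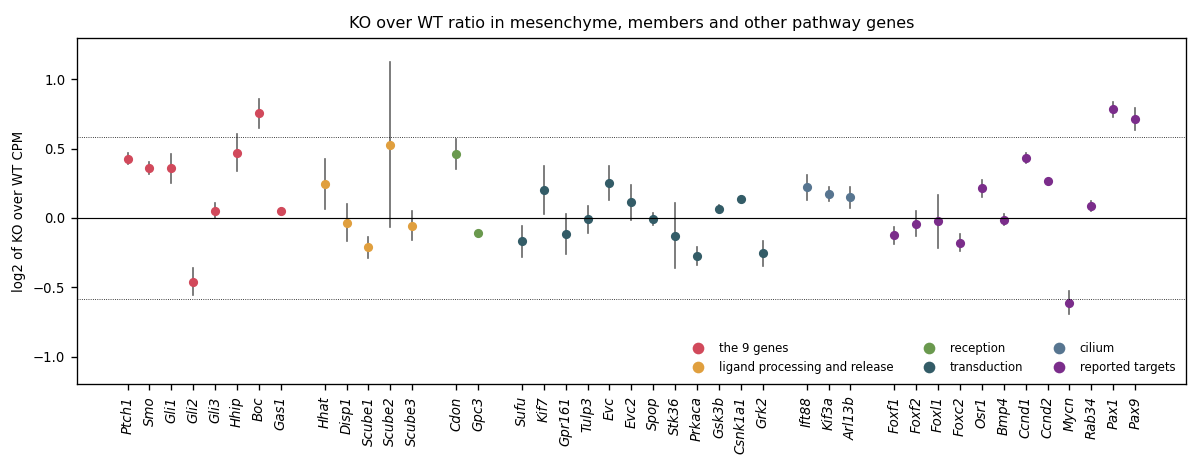
Log2 of KO over WT CPM in mesenchyme for the 8 members with at least 100 UMIs and further pathway genes with as many, with 95% counting intervals and dotted lines at a fold of 1.5. Boc, Pax1 and Pax9 lie above the upper line and Mycn below the lower one.

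In sclerotome, 13 of 31 pathway genes were lower and 18 higher in KO, Pax1 and Pax9 left out, with a median of 0.08 beside 0.05 for all genes. Lower by the fold of 1.5 were 3, beside 2.32% of all genes, namely Foxf1 (76.5 and 49.8 CPM, -0.62, -0.76 to -0.48), Foxf2 (35.0 and 21.9 CPM, -0.68, -0.89 to -0.47) and Mycn (31.0 and 16.2 CPM, -0.94, -1.17 to -0.70). They are among the 10 reported targets, of which 6 were lower and 4 higher, with Osr1 (0.54), Ccnd1 (0.33) and Bmp4 (0.22) among the latter. The rise of Bmp4 was not seen over all mesenchyme, with 96.8 and 96.0 CPM (-0.01, -0.05 to 0.03). The paper reports Bmp4 as significantly lower in its KO Rβ-niche, a cluster of cells from these same libraries with other filters, by a rank-sum test. The reason for the difference was not tested. Higher by the fold was 1, beside 4.57%, namely Cdon (6.45 and 11.9 CPM, 0.89, 0.48 to 1.31). The co-receptors Boc, Cdon and Gas1 (129 and 172 CPM, 0.42, 0.32 to 0.51) were thus all higher in KO sclerotome beyond their counting intervals.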

How the data were processed

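Whole AGM cells were sequenced with the 10x 3′ v3 kit, and the authors deposited unfiltered UMI counts per gene and barcode, made with Cell Ranger 3.1.0 on mm10 (GRCm38). Barcodes with at least 2000 UMIs and under 10% mitochondrial UMIs were kept as cells. A cell entered a class with at least 3 UMIs of at least 2 of its marker genes (1 gene for visceral and gastro-splenic mesenchyme) and a minimum per 10000 UMIs, and cells passing several gates were kept apart. Doublets were not called. Counts were summed per library and class, with exact Poisson, binomial and conditional binomial 95% intervals, and 0 UMIs were given a limit of 3 counts. Of these, the ratio with its interval was tested on simulated counts, as was the drawing of 2000 UMIs. The simulated UMIs were independent, so clumping of UMIs in few cells was not covered. All 9 members were named, pathway genes past a fold of 1.5 or by role, and the 5 genes most like Gli1. An item of the pathway list counts in its summaries and is not reported here. Members and lists were chosen with earlier results of these data known, and the Postn split, the CCACCC core and the exclusion of cells passing the mesenchyme gate were added after values were seen. Python 3.11.15, scipy 1.17.1 and edgeR 4.0.16 (TMM factors only, as an alternative) were used.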

Additional observations from a re-analysis of the deposited data

Results flagged for a closer look

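In 10 classes, compared without erythroid cells and macrophages, 2 genes stood on opposite sides of 0 in KO over WT, with counting intervals that did not reach 0. With 1 library per genotype the difference between classes was not tested. Of the classes left out, erythroid cells had less Ptch1 in KO (-0.72, -1.34 to -0.13). Gli3 was higher in KO visceral mesenchyme (0.27, 0.08 to 0.46) and lower in KO skeletal muscle progenitors (-0.62, -0.91 to -0.34), which are 0.896 apart on the log2 scale. The mesenchymal markers summed to 1103 CPM in WT and 653 CPM in KO muscle progenitors, and to 8762 and 2759 CPM in visceral mesenchyme, and their part was not tested. Gas1 was higher in KO sclerotome (0.42, 0.32 to 0.51) and lower in KO endothelial cells (-1.83, -2.11 to -1.56), which are 2.25 apart. The endothelial value was -0.24 without the cells that also passed the mesenchyme gate. Of the 10 classes, Gas1 was lower beyond its interval in 6 and higher in 3. The 6 include epithelial cells and coelomic epithelium, which without such cells stood at 0.51 and 1.14, with intervals that spanned 0. Within mesenchyme it was lower in KO visceral mesenchyme (-0.76, -0.84 to -0.68) and mural cells (-0.16, -0.28 to -0.04).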

How the results depend on the processing

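Of 93 values recomputed under the alternatives for the main comparisons, 77 moved by less than their interval or fold limit and 16 moved more, with 0 reversed. Some of the 77 could not move. Keeping cells of several gates does not touch mesenchyme, a filter of KO cells does not touch WT values, and a larger fold cannot raise a count of 0. No reversal could be called for the member count, the Shh share, the highest class and the pathway median. With mitochondrial UMIs under 5%, the mesenchymal ratio was 0.54 for Ptch1, 0.49 for Gli1 and 0.26 for Hhip, the pathway median 0.15, the excess of WT sclerotome 0.53 and the epithelial share of Shh 66.7%. Without cells above the 95th percentile of UMIs, which stands in for doublet removal, Ptch1 was 0.32, Hhip 0.29 and the Shh share 87.8%. With the mean of per-cell CPM, Ptch1 was 0.30, Hhip 0.33, the excess of WT sclerotome 0.58 and the Shh share 86.8%. With one class mix, Ptch1 was 0.33 and Gli1 0.24, and without KO cells holding a Pdgfrb UMI the excess of KO sclerotome was 0.44. Causes were not tested. Ratios of Ptch1 ranged from 0.30 to 0.54, of Gli2 from -0.50 to -0.41 and of Boc from 0.66 to 0.84 over 12 alternatives. Of 70 further values 2 reversed, both without cells that also passed the mesenchyme gate: Gas1 in epithelial cells (0.51) and in coelomic epithelium (1.14, from 21 WT and 5 KO cells). Thinning kept the highest class for 12 of the 18 pairs of gene and library, the exceptions being Smo and Boc in both libraries and Gli1 and Gli2 in KO. This was counted among the 77 in spite of these exceptions. TMM factors could not be applied to the Shh share. No paired analysis was possible because there is 1 library per genotype. Depth limits Shh outside epithelium, Ihh, and Gli1 and Hhip in the small classes.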
